A study of Mus musculus with 6 samples.

Results

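The genes described here are silent in wild-type (WT) fetal thymic stroma, are switched on in it by RANKL, and are largely missing from RANKL-stimulated stroma that lacks Jmjd6. They were chosen by 3 limits on FPKM (fragments per kilobase of transcript, scaled to the number of mapped fragments): below 0.1 in unstimulated WT stroma, at least 0.5 in both WT libraries with RANKL, and the larger of both Jmjd6-/- RANKL values more than 3-fold below the smaller WT RANKL value. Of the 22513 entries of the table, 259 went from off to on in WT stroma, and 89 of these met the last limit as well. These 89 genes are called members below. A further 101 of the 259 genes kept at least the smaller WT RANKL value divided by 2 in both Jmjd6-/- libraries and are called kept genes, and 69 lay between.

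The stroma came from cultured fetal thymus lobes (E15.5) of C57BL/6 background that were treated with 2′-deoxyguanosine (2-DG) for 4 days, which depletes the developing T cells and other haematopoietic cells. The groups were unstimulated WT stroma (1 library), WT stroma stimulated with RANKL for 4 days (2 libraries), unstimulated Jmjd6-/- stroma (1 library) and Jmjd6-/- stroma stimulated with RANKL for 4 days (2 libraries). The Jmjd6-/- genotype was that of the whole embryo and not of the epithelium alone, and whole stroma was sequenced, so that a smaller share of cells of a type and less RNA per cell cannot be told apart. The sample labels call the repeated libraries technical duplicates, while the study's methods call them samples.

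Medullary thymic epithelial cells (mTECs) transcribe many genes that otherwise belong to single peripheral tissues, so that developing T cells meet these self-antigens before they leave the thymus. Part of this expression needs Aire, a nuclear protein of mature mTECs. RANKL, a cytokine of the tumour necrosis factor family, acts through its receptor RANK on mTECs, drives their maturation and induces Aire. Jmjd6 is a JmjC-domain oxygenase of the nucleus that hydroxylates lysines in splicing regulatory proteins. The comparison addressed here is which genes that RANKL switches on in WT stroma are not switched on, or hardly, when Jmjd6 is missing.

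A promoter window, 250 bases before to 50 bases after the start of the gene, was found for 71 of the 89 members in the RefSeq table of GRCm38.p6, the assembly that mm10 stands for. In 11 of these 71 windows (15.5%) the letters TATAAA, read on the coding strand, began 40 to 20 bases before the start site. The same held for 2.78% of the windows of all 17199 matched genes and for 12.5% of the 72 kept genes with a window. The 120 bases before the start site are shown for 7 members with these letters and for 3 members that lie in the same chromosomal run as one of them and lack them. TATAAA is in capitals.
Reg3b (chr6:78370765-78370884, plus strand): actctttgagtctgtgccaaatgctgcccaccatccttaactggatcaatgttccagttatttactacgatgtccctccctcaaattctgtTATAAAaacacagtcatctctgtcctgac
Reg3a (chr6:78380589-78380708, plus strand): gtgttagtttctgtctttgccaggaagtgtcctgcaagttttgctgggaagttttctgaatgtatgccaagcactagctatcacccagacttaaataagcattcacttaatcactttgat
Mcpt1 (chr14:56017844-56017963, plus strand): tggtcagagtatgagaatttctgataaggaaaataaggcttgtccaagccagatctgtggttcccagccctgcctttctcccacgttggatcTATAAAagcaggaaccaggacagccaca
Epx (chr11:87875537-87875656, minus strand): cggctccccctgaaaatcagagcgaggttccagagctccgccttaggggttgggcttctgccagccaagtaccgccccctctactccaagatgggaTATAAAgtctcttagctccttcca
Mpo (chr11:87793664-87793783, plus strand): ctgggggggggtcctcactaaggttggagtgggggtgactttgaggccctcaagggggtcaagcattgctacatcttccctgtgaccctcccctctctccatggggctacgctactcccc
Sbpl (chr17:23955274-23955393, minus strand): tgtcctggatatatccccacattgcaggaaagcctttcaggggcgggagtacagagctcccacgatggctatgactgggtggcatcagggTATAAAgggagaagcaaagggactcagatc
Sbp (chr17:23941798-23941917, plus strand): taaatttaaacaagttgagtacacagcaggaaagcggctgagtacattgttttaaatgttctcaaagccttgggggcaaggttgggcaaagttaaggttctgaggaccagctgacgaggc
Pgc (chr17:47726722-47726841, plus strand): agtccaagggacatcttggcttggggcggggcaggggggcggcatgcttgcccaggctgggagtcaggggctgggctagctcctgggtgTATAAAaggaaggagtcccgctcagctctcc
Fabp1 (chr6:71199759-71199878, plus strand): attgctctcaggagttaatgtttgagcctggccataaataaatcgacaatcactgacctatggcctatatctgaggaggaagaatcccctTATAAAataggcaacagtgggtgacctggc
Retnla (chr16:48842489-48842608, plus strand): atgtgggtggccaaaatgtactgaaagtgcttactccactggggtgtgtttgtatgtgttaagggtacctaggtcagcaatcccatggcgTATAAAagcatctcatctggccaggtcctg
In each pair from the same run the sequence differed: the upstream bases were identical at 50% of the aligned positions in Reg3b and Reg3a, at 49.6% in Mpo and Epx and at 47.8% in Sbp and Sbpl. A match to these letters describes the sequence only.

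The member windows held few CpG dinucleotides. Their median was 3 CpGs per window and a CpG ratio (observed over expected from the base composition) of 0.175, against 0.308 in the kept genes and 0.596 over all genes with a window. A ratio of at least 0.6 was reached by 5 of 71 member windows (7.04%), namely those of Car4, Sst, Sct, Chrna4 and Slc6a4. The share was 26.4% among kept genes and 49.8% over all genes. GC content had medians of 51.0% in members, 55.3% in kept genes and 56.7% over all genes. A sequence that matches the 10-base NF-kB consensus, searched for on both strands, stood in 9.86% of member windows, 13.9% of kept windows and 9.18% of all windows. The 120 bases before the start site are shown with CG in capitals for Sct, which holds 16 CpGs in this stretch, and for Muc13 and Ly6c2, which hold none.
Sct (chr7:141279134-141279253, minus strand): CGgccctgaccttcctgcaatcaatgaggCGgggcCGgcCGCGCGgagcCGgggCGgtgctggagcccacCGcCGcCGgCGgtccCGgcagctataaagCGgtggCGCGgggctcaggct
Muc13 (chr16:33793917-33794036, plus strand): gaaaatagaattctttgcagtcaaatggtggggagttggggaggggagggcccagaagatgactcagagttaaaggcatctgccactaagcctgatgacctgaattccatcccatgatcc
Ly6c2 (chr15:75111938-75112057, minus strand): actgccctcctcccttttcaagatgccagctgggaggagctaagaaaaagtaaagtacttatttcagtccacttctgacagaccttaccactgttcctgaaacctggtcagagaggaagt

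**Figure D1:**
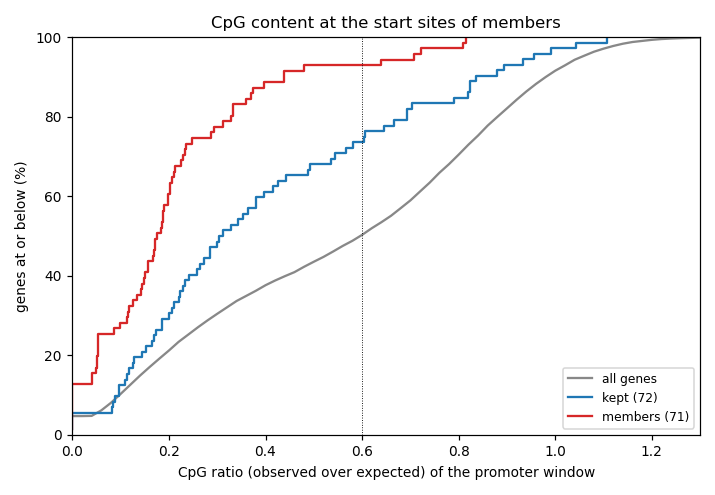
Cumulative share of genes (y axis, percent) at or below a given CpG ratio of the promoter window (x axis, observed over expected), for 71 members (red), 72 kept genes (blue) and all genes with a window (grey). The dotted line marks a ratio of 0.6, which 7.04% of members, 26.4% of kept genes and 49.8% of all genes reached.

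The libraries matched their labels. Jmjd6 stood at 26.3 FPKM in unstimulated WT stroma and at 25.9 and 32.5 in WT stroma with RANKL, against 1.32, 1.96 and 1.78 FPKM in the corresponding Jmjd6-/- libraries (log2 difference with RANKL −3.89, SE 0.17, adjusted p = 0.0138, limma). Aire rose from 0.142 FPKM to 78.0 and 79.7 in WT stroma and from 0.473 to 75.1 and 67.1 in Jmjd6-/- stroma, and its transcript did not differ between genotypes beyond the spread (log2 difference −0.15, SE 0.13, adjusted p = 0.610, limma). Of 29 tested genes of a list of mTEC genes, 2 were lower in Jmjd6-/- stroma with RANKL, the chemokines Ccl17 and Ccl19, and 0 were higher, while 17 rose with RANKL over both genotypes. Ccl19 was at 32.2 and 47.3 FPKM in WT stroma with RANKL against 7.33 and 4.73 (entry on chromosome 4), and a second entry of that name, on an unplaced sequence, was at 0 in every library. The 22 tested genes of a list of Aire and chromatin partners held 0 calls in either direction between genotypes. Genes of macrophages (sums of 627 to 836 FPKM over the list) remained after 2-DG in every library, whereas those of T cells were low (1.11 to 3.52). Estimated depth was 15800000 to 31800000 fragments per library, and 1.82% of the 15894 genes tested (290) were called lower and 0.516% (82) higher in Jmjd6-/- stroma with RANKL. A clear excess of lower calls was not seen when either WT RANKL library was left out. Such a fit takes its spread from the pair of Jmjd6-/- RANKL libraries alone. That pair was closer (median absolute log2 difference 0.0767) than the WT pair (0.276). Counts from such fits therefore cannot show what the excess rests on.

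Summed over all 89 members, FPKM rose from 1.89 in unstimulated WT stroma to 141 and 182 with RANKL. In Jmjd6-/- stroma the same sum was 2.61 without RANKL and 17.7 and 13.6 with it. Single members were weakly expressed even when on: their means over the WT RANKL libraries ran from 0.524 to 8.19 FPKM with a median of 1.20, close to the median of 1.07 in the kept genes. The mean of the Jmjd6-/- RANKL libraries had a median of 9.04% of the WT mean over the members, and was at most 30.8%. With the 10 members at 0 in both of these libraries set to the detection limit, the median was 9.59%. Without that change, the share was below 5% in 24 members, below 10% in 50 and at least 20% in 14. These values chose the members and carry no test. By limma, 53 of the 89 members were among the genes called lower in Jmjd6-/- stroma with RANKL, against 1.82% of all genes tested. In the contrast of RANKL over both genotypes, 33 members were among the genes called higher. In that contrast, 10.5% of all genes tested were called higher and 4.11% lower. Both contrasts use the libraries of the rule, so nothing is read from these counts.

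**Figure D2:**
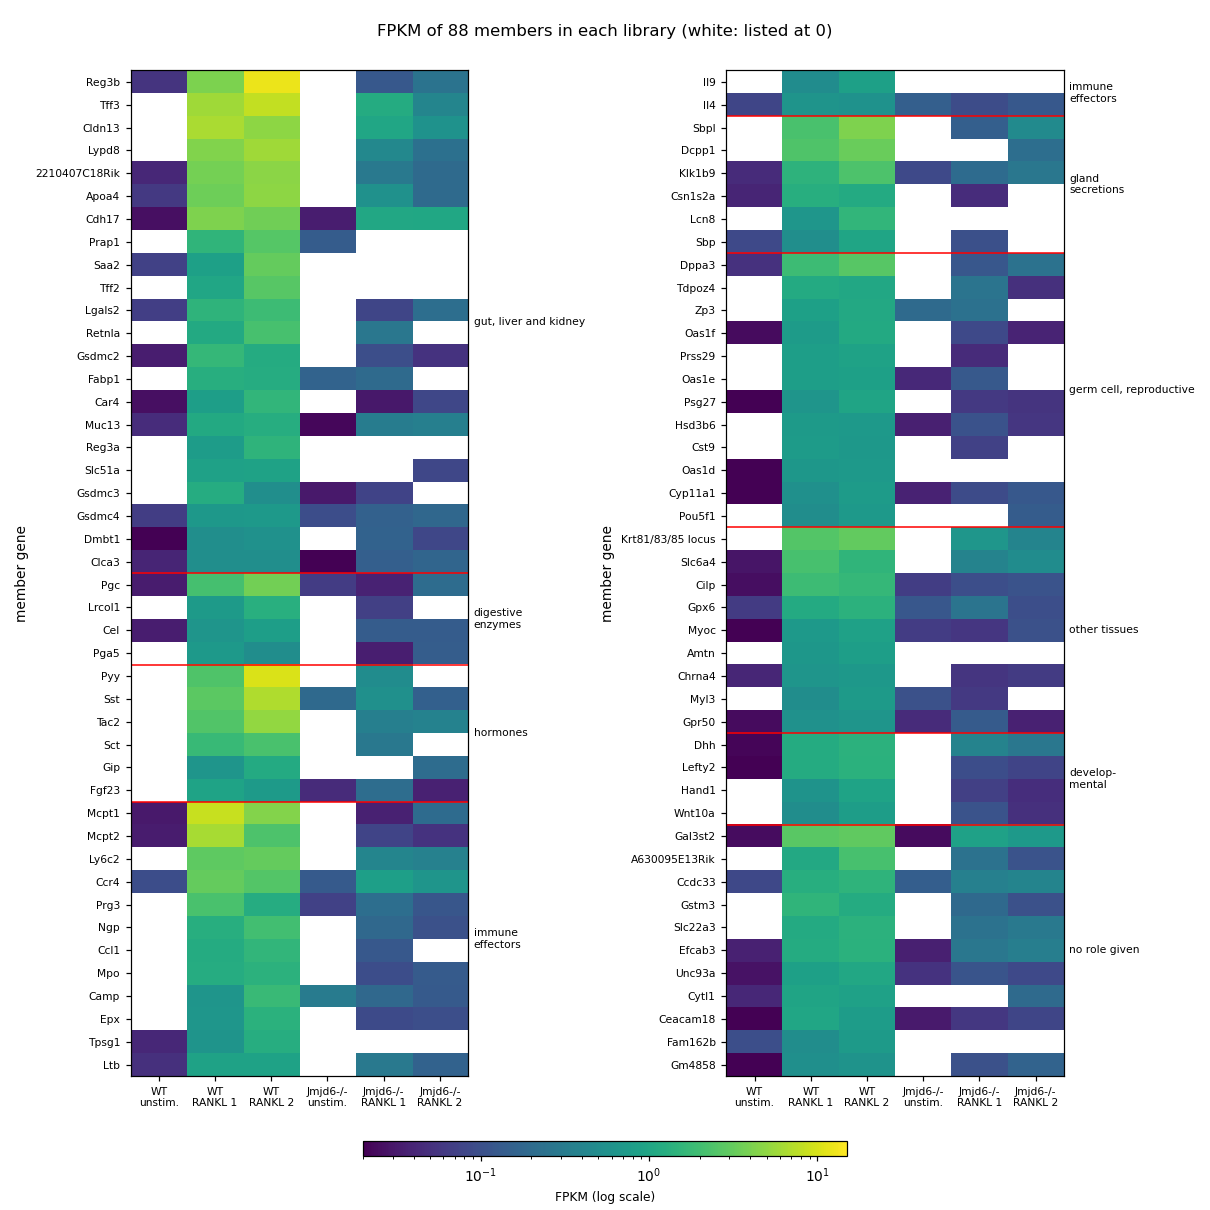
FPKM of 88 of the 89 members (rows) in the 6 libraries (columns), coloured on a log scale, with white for a value of 0. Rows are grouped by the role for which each gene is known and ordered within a group by the mean of the WT RANKL libraries. The pair of WT RANKL columns is bright throughout, while the Jmjd6-/- RANKL columns hold at most 1.18 FPKM.

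The largest group, 23 members, is best known from the lining of the gut and from liver and kidney. Its sum rose from 0.599 FPKM to 49.1 and 67.5 in WT stroma, and reached 6.35 and 4.31 in Jmjd6-/- stroma with RANKL. Reg3b, a secreted lectin that kills bacteria at the gut surface, had the highest mean of all members. It was at 0.0535 FPKM in unstimulated WT stroma, at 4.10 and 12.3 with RANKL, at 0 in unstimulated Jmjd6-/- stroma and at 0.123 and 0.249 in Jmjd6-/- stroma with RANKL. The WT libraries differed 3.00-fold from each other, yet both lay far above the Jmjd6-/- libraries. The trefoil peptide Tff3, which protects mucus-covered surfaces, was at 0 in both unstimulated libraries, at 5.90 and 8.22 FPKM in WT stroma with RANKL and at 1.18 and 0.409 in Jmjd6-/- stroma with RANKL. Its relative Tff2 was at 1.01 and 2.71 FPKM in WT stroma with RANKL and at 0 in the other 4 libraries. The tight junction gene Cldn13 was at 6.47 and 4.85 FPKM against 1.01 and 0.581.

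Lypd8, which keeps motile bacteria off the colon wall, was at 4.33 and 5.78 FPKM in WT stroma with RANKL and at 0.436 and 0.229 without Jmjd6. The apolipoprotein gene Apoa4, made by enterocytes, was at 3.52 and 4.87 FPKM against 0.569 and 0.196. A gene without a name of its own, 2210407C18Rik, was at 3.78 and 4.75 FPKM against 0.290 and 0.195. The intestinal cadherin gene Cdh17 kept more of its level than these, at 4.18 and 3.56 FPKM in WT stroma and 1.05 and 1.03 in Jmjd6-/- stroma, or 27.0% of the WT mean. So did the membrane mucin gene Muc13, at 1.12 and 1.23 FPKM against 0.323 and 0.347. The gasdermin genes Gsdmc2, Gsdmc3 and Gsdmc4 had means of 5.46%, 4.34% and 24.1% of WT in Jmjd6-/- stroma. For Fabp1, the fatty acid carrier of liver and gut, the values were 1.28 and 1.19 FPKM in WT stroma with RANKL and 0.198 and 0 without Jmjd6. Saa2, an acute-phase protein gene, and Prap1, a gut secretory protein gene, were at 0 in both Jmjd6-/- RANKL libraries.

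Digestive enzymes (4) and peptide hormones or neuropeptides (6) made up 10 members. The pepsinogen gene Pgc, whose product is a precursor of a stomach protease, was at 2.14 and 3.63 FPKM in WT stroma with RANKL and at 0.0382 and 0.208 in Jmjd6-/- stroma. A second pepsinogen gene, Pga5, was at 0.696 and 0.513 FPKM against 0.0345 and 0.140. Cel, a lipase of pancreatic juice, kept 19.0% of its WT mean. The hormone and neuropeptide genes as a group were silent in unstimulated WT stroma, with a sum of 0 over 6 genes, and summed to 11.1 and 26.5 FPKM with RANKL. Pyy, a satiety peptide of the lower gut, was at 2.41 and 10.4 FPKM in WT stroma and at 0.504 and 0 in Jmjd6-/- stroma with RANKL. Somatostatin (Sst), which restrains the release of other hormones, was at 2.86 and 6.85 FPKM in WT stroma with RANKL, at 0.191 in unstimulated Jmjd6-/- stroma, and at 0.560 and 0.153 in Jmjd6-/- stroma with RANKL. In Pyy and Sst the second WT library was more than 2-fold above the first. The tachykinin precursor Tac2 was at 2.50 and 5.11 FPKM against 0.344 and 0.380. Secretin (Sct) was at 1.74 and 2.23 FPKM against 0.281 and 0, and the incretin gene Gip at 0.627 and 1.16 against 0 and 0.206. Fgf23, a hormone of bone that lowers blood phosphate, was at 0.925 and 0.735 FPKM against 0.214 and 0.0365.

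The 14 members known from immune cells summed to 30.8 and 25.4 FPKM in WT stroma with RANKL and to 2.65 and 2.13 in Jmjd6-/- stroma. The mast cell proteases Mcpt1 and Mcpt2 showed the lowest remaining shares among the members with the 12 highest WT levels. Mcpt1 was at 0.0316 FPKM in unstimulated WT stroma, at 8.56 and 4.38 with RANKL, at 0 in unstimulated Jmjd6-/- stroma and at 0.0370 and 0.201 with RANKL, a mean of 1.84% of WT. Mcpt2 was at 6.36 and 2.35 FPKM in WT stroma with RANKL against 0.0775 and 0.0526, a mean of 1.49%. Unlike most members, these genes were higher in the first WT library than in the second.

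Some other markers of mast cells moved with them and others did not. The list of 14 mast cell genes, Mcpt1 and Mcpt2 included, summed to 5.87 FPKM in unstimulated WT stroma and to 41.9 and 29.9 with RANKL. In the corresponding Jmjd6-/- libraries the list summed to 3.16, 8.48 and 6.72 FPKM. Of its 9 tested genes, 5 were called lower in Jmjd6-/- stroma with RANKL. Mcpt1 and Mcpt2, which the rule chose on this contrast, were among the 5. Its defining genes were low: the carboxypeptidase gene Cpa3 was at 0.395, 0.908 and 0.423 FPKM in WT stroma and at 0, 0 and 0.0325 in Jmjd6-/- stroma, and the IgE receptor gene Fcer1a was at 0 in 4 of 6 libraries with a highest value of 0.123. Kit, which mast cells share with other cells, was at 4.55 and 4.11 FPKM in WT stroma with RANKL and at 4.86 and 3.81 in Jmjd6-/- stroma. The listed protease Tpsb2 was at 1.32 and 0.552 FPKM in WT stroma with RANKL against 0.0466 and 0.127 in Jmjd6-/- stroma. Mcpt4 was at 1.90 and 0.821 FPKM against 0.0419 and 0, and Cma1 at 0.870 and 0.553 against 0 and 0. Tpsab1 was at 0.0781 FPKM at most. The part of mast cells in the levels of Mcpt1 and Mcpt2 was not tested.

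Granule genes of neutrophils and eosinophils were members as well. Mpo, the peroxidase of neutrophil granules, was at 1.20 and 1.40 FPKM in WT stroma with RANKL, against 0.0967 and 0.133 in Jmjd6-/- stroma and 0 in both unstimulated libraries. Its eosinophil relative Epx was at 0.641 and 1.39 FPKM against 0.0895 and 0.0980. The neutrophil granule gene Ngp was at 1.27 and 2.03 FPKM against 0.189 and 0.103, and the eosinophil granule gene Prg3 at 2.27 and 1.20 against 0.218 and 0.119. The cathelicidin gene Camp was at 0 in unstimulated WT stroma and 0.634 and 1.76 FPKM with RANKL, but at 0.318 in unstimulated Jmjd6-/- stroma and 0.190 and 0.129 with RANKL. The neutrophil list as a whole did not move alike. It summed to 7.09, 120 and 187 FPKM in WT stroma and to 17.1, 92.7 and 104 in Jmjd6-/- stroma, mostly from S100a8 and S100a9, and its neutrophil-defining gene Elane was at 0 in 5 of 6 libraries with 0.0643 FPKM in the first WT RANKL library. Of 8 tested genes of this list, 2 were called lower (the members Mpo and Ngp) and 1 higher (Ltf) in Jmjd6-/- stroma with RANKL. The part of neutrophils was not tested.

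Cytokine and chemokine genes were among the same 14. Ccr4, the receptor for the mTEC chemokines Ccl17 and Ccl22, lay close to the limit for being off, at 0.0961 FPKM in unstimulated WT stroma, 3.16 and 2.57 with RANKL, 0.131 in unstimulated Jmjd6-/- stroma and 0.839 and 0.640 with RANKL. Its ligand gene Ccl17 was at 0.889 and 1.03 FPKM in WT stroma with RANKL and at 0.208 and 0.142 in Jmjd6-/- stroma (log2 difference −1.95, SE 0.31, adjusted p = 0.0492, limma). The monocyte surface gene Ly6c2 was at 2.93 and 3.12 FPKM against 0.409 and 0.368, but its transcript is 97.6% identical to that of Ly6c1, so the reads of both may be exchanged. Ccl1, a chemokine gene of activated T cells, was at 1.17 and 1.54 FPKM against 0.123 and 0, and the T cell cytokine gene Il9 at 0.506 and 0.871 FPKM against 0 in both Jmjd6-/- libraries. The T cell marker Cd3e was at 0 in 5 of 6 libraries and at 0.0345 FPKM in 1 Jmjd6-/- RANKL library. The whole list of 9 T cell genes summed to 1.11, 2.64 and 3.52 FPKM in WT stroma. In Jmjd6-/- stroma it summed to 1.75, 1.75 and 1.65. Of its 3 tested genes, 1 was called higher with RANKL and 0 differed between genotypes. The part of T cells was not tested.

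Secretory products of glands made up 6 members. The seminal gene Sbpl was at 2.25 and 4.21 FPKM in WT stroma with RANKL and at 0.149 and 0.471 in Jmjd6-/- stroma, and the salivary gene Dcpp1 at 2.42 and 3.32 FPKM against 0 and 0.218. The milk protein gene Csn1s2a was at 1.28 and 1.15 FPKM against 0.0458 and 0. Sbp, the spermine-binding protein gene of the prostate, was at 0.526 and 0.969 FPKM against 0.101 and 0. All 4 were at 0 in unstimulated Jmjd6-/- stroma.

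Genes of germ cells, early embryo, gonads and placenta gave 12 members, which summed to 10.1 and 12.3 FPKM in WT stroma with RANKL and to 1.20 and 0.703 in Jmjd6-/- stroma. Dppa3, a gene of primordial germ cells and oocytes, led them at 1.87 and 2.69 FPKM against 0.119 and 0.242. The egg coat gene Zp3 was at 0.852 and 1.09 FPKM in WT stroma with RANKL, at 0.20 in unstimulated Jmjd6-/- stroma and at 0.235 and 0 in Jmjd6-/- stroma with RANKL. The pluripotency factor Pou5f1 was at 0.520 and 0.724 FPKM against 0 and 0.136. Cyp11a1, which starts steroid synthesis in gonads and adrenal glands, was at 0.552 and 0.763 FPKM against 0.0898 and 0.122. The Oas1 family genes Oas1d, Oas1e and Oas1f lay between 0.663 and 1.11 FPKM in WT stroma and between 0 and 0.128 in Jmjd6-/- stroma with RANKL.

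The remaining members came from scattered tissues. A merged entry for the hair keratin genes Krt81, Krt83 and Krt85 and the gene 5430421N21Rik was at 2.55 and 3.03 FPKM in WT stroma with RANKL and at 0.651 and 0.399 without Jmjd6, so that the part of each gene cannot be told apart. The serotonin transporter gene Slc6a4 was at 2.16 and 1.52 FPKM against 0.382 and 0.495, and the cartilage matrix gene Cilp at 1.86 and 1.64 against 0.0986 and 0.108. The enamel protein gene Amtn was at 0.662 and 0.822 FPKM against 0 in both. Of 4 developmental regulators, Dhh, a hedgehog ligand, was at 1.17 and 1.41 FPKM against 0.382 and 0.277, Lefty2, an inhibitor of Nodal signalling, at 1.19 and 1.36 against 0.0962 and 0.0782, and Wnt10a at 0.519 and 0.796 against 0.109 and 0.0498. For 11 members no tissue is named here. The highest of these, the sulphotransferase gene Gal3st2, was at 2.74 and 2.97 FPKM against 0.891 and 0.704, and shares 99.6% identity over 2576 bases with Gal3st2b.

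The members end at the limits without a gap. Ccr4 and Fam162b were just inside the limit for unstimulated WT stroma, at 0.0961 and 0.0976 FPKM, and the merged entry of Mucl1 and Spt1, and Ppy were just outside it, at 0.102 and 0.112. The entry of Mucl1 and Spt1 met the other limits, at 4.56 and 8.14 FPKM in WT stroma with RANKL against 0.25 and 0.23. Il9 and Myl3 had smaller WT RANKL values of 0.506 and 0.511 FPKM, while H2-M10.5 and Chit1 missed the limit at 0.481 and 0.479. The larger Jmjd6-/- RANKL value was 33.1% of the smaller WT value in Clca3 and 32.8% in Gip, inside, and 33.9% in Tnmd, outside.

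Of the 89 members, 60 were above 0 in both Jmjd6-/- RANKL libraries, 19 in only 1 of them and 10 in neither. The 10 were Oas1d, Saa2, Prap1, Tpsg1, Tff2, Reg3a, Amtn, Lcn8, Fam162b and Il9. With a limit of 3 fragments over both libraries they were at least 20.3-fold (Oas1d) to at least 4.20-fold (Il9) lower than in WT stroma. An estimated 11 to 601 fragments lay behind the WT RANKL values of a member, with a median of 65, and a median of 7 behind the Jmjd6-/- values, so that Jmjd6-/- levels of single members are known to within a few fragments only. Members had short transcripts, with a median of 1239 bases against 2361 in kept genes.

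**Figure D3:**
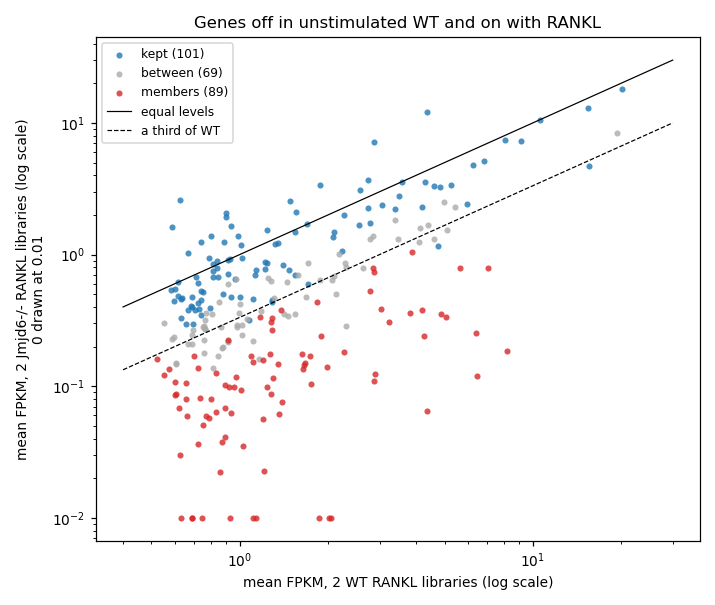
Mean FPKM of both Jmjd6-/- RANKL libraries (y axis, log scale) against that of both WT RANKL libraries (x axis, log scale) for the 259 genes that were off in unstimulated WT stroma and on with RANKL. The 89 members (red) lie below the dashed line of a 3-fold difference, with 10 members at 0. The 101 kept genes (blue) run from 24.5% to 418% of the WT mean with a median of 77.6%. The lowest kept level thus also lies below the dashed line.

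Unstimulated Jmjd6-/- stroma was the only library that played no part in choosing the members. There, 59 members were at 0 and 10 (11.2%) were at 0.1 FPKM or above, against 6.06% of the 7491 genes that were below 0.1 in unstimulated WT stroma and 30.7% of kept genes. The 10 were Camp at 0.318 FPKM, Zp3 at 0.20, Sst at 0.191, Fabp1 at 0.166, Il4 at 0.15, Ccdc33 at 0.144, Prap1 at 0.136, Ccr4 at 0.131, Gpx6 at 0.121 and Myl3 at 0.102. A single fragment is worth 0.1 FPKM or more in this library for 21 members, which covers several of these values. With 1 library there is no test of this share.

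In 52 of 89 members (58.4%) both Jmjd6-/- RANKL libraries lay above the unstimulated Jmjd6-/- library. The share was 31.7% over all entries, which include genes silent in every library, and it held for 101 of 101 kept genes, for which the definition all but fixes it. These RANKL values were used by the rule, and the single unstimulated library was the shallowest, so that 1 fragment in each RANKL library can put a member above it and no response to RANKL is read from the count. The highest remaining levels were those of Cdh17 (1.05 and 1.03 FPKM from 0.0344), Gal3st2 (0.891 and 0.704 from 0.0242), Tff3 (1.18 and 0.409 from 0) and Cldn13 (1.01 and 0.581 from 0). In 29 members the smaller RANKL value was at least 0.1 FPKM above the unstimulated one.

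**Figure D4:**
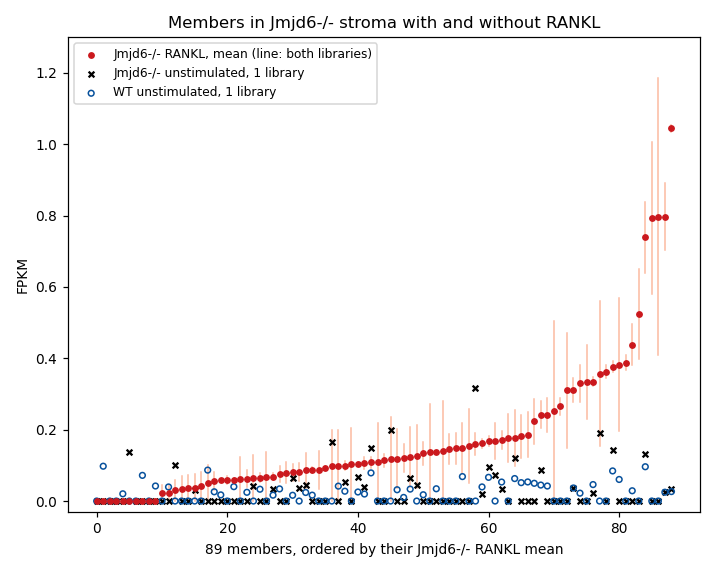
FPKM of the 89 members (x axis, ordered by their Jmjd6-/- RANKL mean) in unstimulated Jmjd6-/- stroma (crosses, 1 library), unstimulated WT stroma (open circles, 1 library) and RANKL-stimulated Jmjd6-/- stroma (red, mean of 2 libraries, with a line joining both values). The means run from 0 in 10 members to 1.04 FPKM in Cdh17, and the crosses are at 0 for 59 members.

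Lists of genes named for a tissue give the place of the members among other genes of that tissue, beside the 89 members and 101 kept genes among all 259 off-to-on genes. Of 38 stomach and intestine genes in the table, 13 went from off to on in WT stroma, and of these 11 were members and 0 were kept. Of 36 pancreas genes, 6 went from off to on, of which 5 were members (Cel, Pyy, Reg3a, Reg3b and Sst) and 0 kept. Of these, Reg3b and Pyy are described above for the gut, so the lists do not separate these tissues. Of 34 reproductive genes 4 went from off to on, with 3 members and 0 kept. All off-to-on genes of the neutrophil (3), mast cell (2), milk (1) and salivary and lacrimal (1) lists were members. Of 47 liver genes 3 went from off to on, with 1 member and 1 kept gene. Of 35 genes of eye and nerve 3 did, with 0 members and 1 kept gene. The tuft cell and mTEC lists each had 1 off-to-on gene, which was kept. Among 27 tested stomach and intestine genes, 7 were called lower and 0 higher in Jmjd6-/- stroma with RANKL, with a median log2 difference of −1.68, and among 20 tested pancreas genes 6 were called lower and 0 higher, with a median of −2.53. Of 26 tested liver genes 5 were called lower and 1 higher, and of 22 tested eye and nerve genes 3 lower and 0 higher. Over all genes tested the median was 0.01. A list of 28 genes of epidermis and tooth gave 0 members and 0 off-to-on genes, and of 22 tested 0 were lower and 7 higher, with a median of 1.76. That list counted neither the enamel gene Amtn nor the merged hair keratin entry, which are both members. It therefore does not stand for all genes of these tissues. For comparison, 1.82% of all genes tested were called lower and 0.516% higher. Where a list includes members, its calls and its median come in part from values that the rule used, so nothing is read from them.

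Part of the members lay close to each other in the genome. With a gap of at most 200000 bases, 21 members (23.6%) formed 9 runs, against 6 of 101 kept genes (5.94%). The share over all entries was not computed, so the runs are not read as a trait of the members. Most runs held members of the same gene family, which share sequence and are not independent of each other. Sbp and Sbpl were 98.5% identical over 462 bases, and Gsdmc2 and Gsdmc3 97.4% over 1637 bases, so that reads may be exchanged within these pairs.

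Relatives of members within or near the runs were low without Jmjd6 in some cases and not in others. On chromosome 11 (mm10, chr11:87793784-87875536) the peroxidase genes Mpo and Epx flank the gene of lactoperoxidase (Lpo). Lpo rose from 0.877 FPKM to 22.2 and 30.5 in WT stroma and from 1.63 to 30.2 and 26.2 in Jmjd6-/- stroma. Mpo and Epx, which the rule chose for low levels without Jmjd6, stood at 8.83% and 9.25% of WT. On chromosome 6, Reg3b and Reg3a (chr6:78370885-78383839) lie near Reg1 and Reg3g. Reg1 was at 3.31 and 6.26 FPKM in WT stroma with RANKL and at 0.247 and 0.0835 in Jmjd6-/- stroma, but was already at 0.269 in unstimulated WT stroma and so is no member. Reg3g, the most abundant of the family, was at 5.89, 99.0 and 173 FPKM in WT stroma and at 3.02, 28.2 and 29.1 in Jmjd6-/- stroma.

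On chromosome 17, the trefoil genes Tff3 and Tff2 (chr17:31125306-31144282) lie beside Tff1, which was at 2.77, 4.37 and 13.0 FPKM in WT stroma and at 2.00, 3.26 and 3.22 in Jmjd6-/- stroma. The WT RANKL libraries of Tff1 were further apart than the genotypes. In the same chromosome's salivary and seminal run (chr17:23880876-23955273), Dcpp2 and Dcpp3 missed the limits but resembled their neighbour Dcpp1, with 0.412 and 0.677 FPKM against 0 and 0 for Dcpp2. The Mcpt1 and Mcpt2 run (chr14:56017964-56044634) lies near Mcpt4 and Cma1, which were at 0.252 and 0.257 FPKM in unstimulated WT stroma and so are no members. With RANKL, Mcpt4 was at 1.90 and 0.821 FPKM in WT stroma against 0.0419 and 0 in Jmjd6-/- stroma, and Cma1 at 0.870 and 0.553 against 0 and 0. The members Oas1d, Oas1e and Oas1f (chr5:120786312-120921647) share their run with 5 Oas1 relatives. One of these, Oas1h, missed the limit for being off at 0.171 FPKM in unstimulated WT stroma but resembled the members, at 1.12 and 1.28 FPKM with RANKL against 0.0328 and 0.0889 in Jmjd6-/- stroma. The other 4 were at 1.11 to 12.6 FPKM in unstimulated WT stroma. Of these, Oas1c was at 2.14 and 3.05 FPKM with RANKL against 1.92 and 1.29 in Jmjd6-/- stroma, and Oas1g was at 5.27, 13.7 and 15.3 FPKM in WT stroma and at 0.604, 4.47 and 4.38 in Jmjd6-/- stroma.

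**Figure D5:**
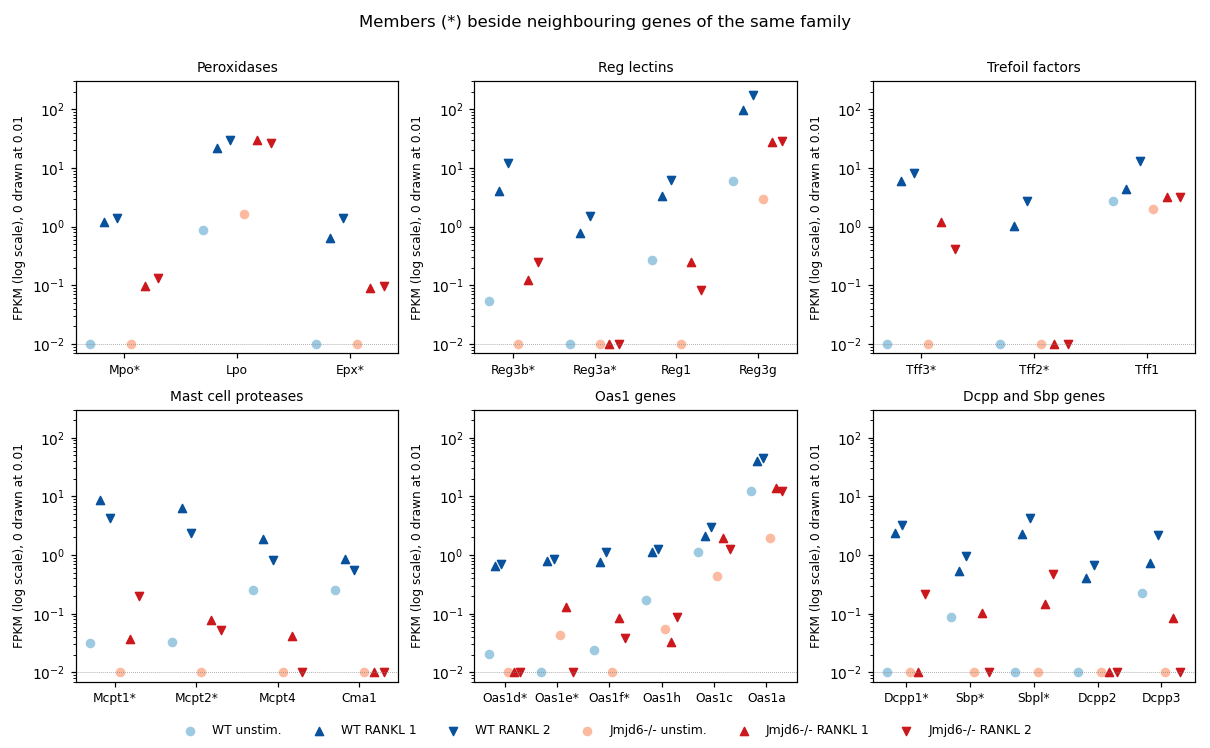
FPKM (y axis, log scale, 0 drawn at 0.01) of members (marked with an asterisk) and of neighbouring relatives in 6 chromosomal runs, for unstimulated (circles) and RANKL-stimulated libraries (triangles) of WT (blue) and Jmjd6-/- stroma (red). Lpo overlaps between genotypes with RANKL at 22.2 to 30.5 FPKM. Mpo and Epx on either side do not, which the rule for members requires.

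The WT RANKL libraries did not agree on the members' levels. The second was above the first in 65 of 89 members (73.0%), in 59.4% of kept genes and in 45.6% of all genes above 0, although it had the lower estimated depth, 16200000 against 29600000 fragments. Among the exceptions were Mcpt1, Mcpt2 and Prg3. With 2 libraries a group, an exact permutation test of a single gene cannot go below p = 0.333.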

How the data were processed

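Poly-A RNA from 6 libraries of 2-DG-treated fetal thymus organ culture was sequenced in paired-end mode. Per the labels and the study's methods, the authors mapped reads to mm10 with TopHat2 2.0.10 and deposited FPKM per gene from Cufflinks 2.1.1. The library type was set to strand-specific, although the kit is not described as keeping strand, so overlapping genes on opposite strands are uncertain. FPKM were used as deposited, and groups came from sample titles. Members and gene lists were chosen with earlier results of these data known, and role groups after the values were seen.

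Entries whose average over the 6 libraries reached 0.1 FPKM were fitted with limma 3.58.1 (R 4.3.3) on log2 values after adding 0.1. The fit used a trend of variance with level, and p-values were adjusted by Benjamini and Hochberg's method (threshold 0.05). The genotypes were compared with RANKL in a model of 4 condition means, and the effect of RANKL was estimated with genotype as covariate. The code was tested on simulated data. These p-values measure only the spread between libraries. Members have no p-values, as the rule used these contrasts. Duplicate numbers did not pair the libraries (correlation of replicate differences −0.08 over 12587 genes).

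Depth was estimated from steps between FPKM below 0.15 and GENCODE transcript lengths less 150 bases. The estimates are approximate (51.8% of member values under 5 fragments came within 0.15 of a whole number), and limits from them cover counting error only.

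Named members were those with the 12 highest WT RANKL means, the 6 highest values in unstimulated Jmjd6-/- stroma, those on a gene list, in a run or family, or nearest a limit. Others, such as Lpo and Cdh17, were named after their values were seen. Alternatives were other limits of the rule, added constants of 1 and 0.01, no filter or a filter at 1 FPKM, equal totals, the replicate number as a term, and leaving out each RANKL library. Other gap lengths and CpG limits were added after seeing the data. The values of 1 member and of 1 gene just outside a limit are not reported here.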

Additional observations from a re-analysis of the deposited data

Results flagged for a closer look

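In 4 members, both WT RANKL libraries lay above the unstimulated WT library while both Jmjd6-/- RANKL libraries lay below the unstimulated Jmjd6-/- library. The mean of the Jmjd6-/- RANKL libraries minus the unstimulated one was −0.159 FPKM in Camp, −0.136 in Prap1, −0.0720 in Myl3 and −0.0411 in Il4. The difference in direction was not tested, since each genotype has 1 unstimulated library. About 3 fragments of Camp and about 1 of each other gene lay behind the unstimulated Jmjd6-/- value.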

How the results depend on the processing

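The number of members, 89, was 45 with at least 1 FPKM asked of the WT RANKL libraries, 170 with 0.25 FPKM, and 53 with a 5-fold gap between genotypes. Leaving out one RANKL library gave 102 to 199 genes, the latter without the first WT library. Fewer libraries make the limits easier to meet, and each of these sets holds the 89. With libraries scaled to equal totals 89 genes met the rule, 84 of them the same. Members at the limit in unstimulated Jmjd6-/- stroma, 10 at 0.1 FPKM, numbered 17 at 0.05 and 1 at 0.2. Members above it in both Jmjd6-/- RANKL libraries fell from 52 to 29 when 0.1 FPKM was asked and were 59 to 69 with one library left out. The genotype contrast with RANKL gave 372 calls, and 231 with a filter at 1 FPKM, 241 with 0.01 added, 2 with no filter, which adds genes at 0 throughout, and 1477 with the replicate block. Leaving out a library gave 104 (without the second Jmjd6-/- library) to 4264 calls (without the first WT library, where 2428 were higher and 1836 lower in Jmjd6-/- stroma, the reverse of 82 and 290), 2019 without the second WT (993 higher and 1026 lower) and 234 without the first Jmjd6-/- library, each leaving a lone library assumed to vary like the other group. The RANKL contrast gave 2329 calls, 1087 with no filter, 1564 with the replicate block, 1170 and 1272 without the first or second Jmjd6-/- library, and 3549 and 3675 without the first or second WT library. Beyond construction, the cause was not tested. Of the member promoters, 2 reached a CpG ratio of 0.75. Depth limits single Jmjd6-/- levels to a few fragments.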

Other observations

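Lists with no members also differed between genotypes. The endothelial list summed to 22.4 FPKM in unstimulated WT stroma and to 12.5 and 12.3 with RANKL, against 8.31, 4.62 and 4.10 in Jmjd6-/- stroma, and 2 of its 5 tested genes were called lower in Jmjd6-/- stroma with RANKL by limma. The mesenchymal list summed to 322, 367 and 338 FPKM in WT stroma and to 152, 247 and 241 in Jmjd6-/- stroma.

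Genes just outside the limits repeated the members' tissues. Zg16, a secretory granule protein gene of the pancreas and gut, was at 0.245 FPKM in unstimulated WT stroma, 1.54 and 2.68 with RANKL and 0.188 and 0.254 in Jmjd6-/- stroma with RANKL. The insulin gene Ins2 missed the lower limit for the first WT RANKL library at 0.302 FPKM and was at 0.773 in the second and at 0 in the other 4 libraries. The casein gene Csn2, far more abundant than its member relative Csn1s2a, rose from 0.239 to 102 and 99.3 FPKM in WT stroma and from 0.369 to 38.7 and 33.1 in Jmjd6-/- stroma.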
